A study of Homo sapiens with 9 samples.

Results

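The genes of glycolysis and of the cellular response to low oxygen were followed in HT29 cells, a human colorectal adenocarcinoma line, as 36 genes chosen by name: 16 glycolytic enzymes, 4 kinases that set the flux through or out of glycolysis, 3 genes of oxygen sensing, and 13 other genes known to respond to hypoxia. Of these 36, 30 were found among the 11664 gene names that the deposited tables list, and 6 (PFKP, ALDOA, PGK1, PDK3, EGLN3 and BNIP3) were in no table. The RNA of 9 libraries was sequenced, 3 in each of 3 groups, and the sample labels number them as biological replicates without saying whether each was a separate culture, so p-values measure the spread between libraries. The control cells (Con) were grown in complete medium, serum-starved for 24 h and collected. The ESC CM cells received, for 24 h, conditioned medium (CM) of stromal cells from epiploic adipose tissue (EPAT), the fat appendages of the colon. The CRC-MPS CM cells received, for the same 24 h, CM of the colorectal cancer microphysiological system, in which minced EPAT and GFP-tagged HT29 cells lie between sheets of those stromal cells. The treatment label of these samples names only adipose tissue, and that of the ESC CM samples an adipose stromal cell control. According to the paper, the CRC-MPS CM used for sequencing came from systems made with EPAT of obese patients. For the CM cells the labels give no time of starvation. The study's methods name serum starvation overnight before experiments and for 3 days before treatments. Differences in starvation, medium change or time in culture between control and CM cells cannot be told apart from the CM. By the study's methods the microphysiological system was kept in medium with fetal bovine serum and its CM was diluted in serum-free medium, so serum carried over cannot be told apart from other factors in that comparison with control. How the CM of stromal cells alone was prepared and diluted is not given in those methods, so a difference in serum or dilution between the CM cannot be told apart from the other differences either. All groups are the same cell line, and in such bulk RNA fewer cells expressing a gene and less RNA per cell cannot be told apart.

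Glycolysis turns glucose into pyruvate, and lactate dehydrogenase then makes lactate, a route that colon cancer cells use heavily even where oxygen is at hand. When oxygen is present, the prolyl hydroxylases encoded by the EGLN genes mark the HIF-1 alpha protein, the product of HIF1A, for destruction through VHL. When oxygen falls, the protein escapes, pairs with ARNT and binds hypoxia response elements, short stretches with the core ACGTG or GCGTG, near genes of glucose use, pH control, vessel growth and mitophagy. This control acts mainly on the protein, so the level of HIF1A RNA is not a measure of HIF activity. Several glycolytic enzymes are also known HIF targets, together with genes such as CA9, NDRG1 and VEGFA that have no part in glycolysis.

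Because many of these genes are known to be read through such elements, the start regions of 6 members are shown to set side by side 3 that were lower with both CM than in control (ALDOC, ANKRD37, CA9) and 3 enzymes that had higher levels (LDHA, GPI, LDHB). Each runs 5′ to 3′ on the gene's strand, from 250 bases before the annotated start to 50 after it, as given by RefSeq on GRCh38.p14, and capitals mark the letters ACGTG or GCGTG on either strand (CACGT or CACGC where the match lies on the other strand). The windows lie at chr17:28576846-28577145 (minus strand) for ALDOC, chr4:185396591-185396890 (plus) for ANKRD37, chr9:35673678-35673977 (plus) for CA9, chr11:18394313-18394612 (plus) for LDHA, chr19:34364742-34365041 (plus) for GPI and chr12:21657793-21658092 (minus) for LDHB.
ALDOC: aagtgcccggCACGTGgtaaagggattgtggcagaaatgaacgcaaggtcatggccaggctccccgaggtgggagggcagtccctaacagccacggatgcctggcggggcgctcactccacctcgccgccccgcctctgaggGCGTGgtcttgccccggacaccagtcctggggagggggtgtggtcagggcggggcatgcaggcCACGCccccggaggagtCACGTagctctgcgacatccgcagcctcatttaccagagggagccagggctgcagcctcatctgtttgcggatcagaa
ANKRD37: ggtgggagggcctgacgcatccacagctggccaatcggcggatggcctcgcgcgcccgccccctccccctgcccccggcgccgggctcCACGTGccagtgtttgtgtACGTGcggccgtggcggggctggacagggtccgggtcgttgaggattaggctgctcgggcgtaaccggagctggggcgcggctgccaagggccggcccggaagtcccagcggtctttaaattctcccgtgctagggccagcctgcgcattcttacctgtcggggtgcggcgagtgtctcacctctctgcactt
CA9: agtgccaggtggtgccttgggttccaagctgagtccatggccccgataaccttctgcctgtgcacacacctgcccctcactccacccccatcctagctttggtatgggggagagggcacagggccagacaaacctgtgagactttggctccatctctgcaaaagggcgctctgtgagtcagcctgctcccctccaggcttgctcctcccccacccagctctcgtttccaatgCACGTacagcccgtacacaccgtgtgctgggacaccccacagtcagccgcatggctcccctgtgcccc
LDHA: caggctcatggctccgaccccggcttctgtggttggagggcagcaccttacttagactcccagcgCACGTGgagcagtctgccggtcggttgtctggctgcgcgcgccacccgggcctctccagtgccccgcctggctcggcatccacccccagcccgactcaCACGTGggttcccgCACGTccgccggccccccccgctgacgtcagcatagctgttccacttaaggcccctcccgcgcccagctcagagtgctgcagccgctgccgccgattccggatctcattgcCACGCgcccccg
GPI: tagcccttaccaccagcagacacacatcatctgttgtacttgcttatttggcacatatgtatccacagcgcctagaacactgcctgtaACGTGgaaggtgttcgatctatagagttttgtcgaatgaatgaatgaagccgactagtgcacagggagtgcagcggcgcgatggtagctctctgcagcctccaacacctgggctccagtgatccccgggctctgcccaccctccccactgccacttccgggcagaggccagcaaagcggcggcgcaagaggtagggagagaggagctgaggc
LDHB: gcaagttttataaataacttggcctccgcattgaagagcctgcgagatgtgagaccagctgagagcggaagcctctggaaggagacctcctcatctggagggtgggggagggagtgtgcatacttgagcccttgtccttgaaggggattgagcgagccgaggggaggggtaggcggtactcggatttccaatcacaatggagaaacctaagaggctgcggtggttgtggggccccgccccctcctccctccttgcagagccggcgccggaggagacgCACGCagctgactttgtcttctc

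The letters were found both in members that were lower and in members that were higher with CM. ALDOC held 3 matches to ACGTG and 2 to GCGTG, ANKRD37 held 3 to ACGTG, and CA9 held 1 to ACGTG. LDHA held 5 matches to ACGTG and 1 to GCGTG, GPI held 1 to ACGTG, and LDHB held 1 to GCGTG. The stretch CACGTG, which occurs in ALDOC, ANKRD37 and LDHA and is also the E-box read by MYC and BHLHE40, holds ACGTG on both strands and was counted as 2 matches. Of the 33 members with a RefSeq window, 15 (45.5%) held ACGTG and 16 (48.5%) held GCGTG, against 21.4% and 36.5% of all 35116 such windows and 26.7% and 50.1% of the 8464 windows of genes listed in any table. The median GC content was 68.7% in the members' windows, 58.7% in all windows and 65.3% in those of listed genes, and its part in the shares was not tested. Of the 10 other hypoxia response genes with a window, 9 held either motif, as did 11 of the 16 enzymes, where 48.4% of all windows and 62.8% of those of listed genes did. A match of these letters is a description of the window and not evidence that a factor binds there. NDRG1, BNIP3L and VEGFA had no entry among the windows.

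Levels are given in TPM, a measure of transcript abundance that scales each gene by its length and each library to a common total, so that genes can be compared within a library. The authors deposited 1 table for each pair of groups, and each table lists only genes whose p was under 0.05 in the authors' own test. It follows that a member absent from a table is reported as not listed, and that the direction and separation of listed genes describe genes already picked for differing. A gene was called higher or lower where limma on log2(TPM + 1) gave an adjusted p under 0.05, counted over 20000 genes, and a difference beyond 1.5-fold. Differences below are of mean log2(TPM + 1), with the standard error (SE), and are somewhat smaller than the true log2 change for genes at a few TPM. Levels in control and with CRC-MPS CM are from the table that compares them, and levels with ESC CM are from its table against control. A member's value in a given library differed between tables by at most 0.98%.

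Compared with serum-free control, many hypoxia response genes were lower with CRC-MPS CM while most glycolytic enzymes had somewhat higher levels. Of the 30 members listed, 9 were called lower and 3 higher, where 20.1% of all 10019 listed genes were called lower, 20.3% higher and 40.4% in either direction. The 9 were the hypoxia response genes NDRG1, ANKRD37, BNIP3L, CA9, P4HA2 and CA12, the enzymes ALDOC and ENO2, and the kinase PFKFB4, while the 3 called higher were GPI, LDHB and HIF1A. At the adjusted p with no minimum fold, 12 members were higher and 15 lower, beside 42.2% and 39.5% of listed genes. The groups did not overlap in any of the 30 listed members, 14 of them higher (45.3% of all listed genes) and 16 lower (44.1%), or 89.4% of listed genes in either direction.

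ESC CM was compared with the same control libraries, and here too hypoxia response genes were lower. Of the 28 members listed, 12 were called lower and 2 higher, where 20.1% of all 10007 listed genes were called lower, 17.6% higher and 37.6% in either direction. The 12 held all 9 genes that were lower with CRC-MPS CM and also VEGFA, BHLHE40 and PDK1, and the 2 called higher were GPI and LDHB. At the adjusted p with no minimum fold, 11 members were higher and 16 lower, beside 42% and 41.6% of listed genes. The groups did not overlap in any of the 28, 12 of them higher (45.7% of listed genes) and 16 lower (45%), or 90.6% of listed genes in either direction. Since both comparisons rest on the same 3 control libraries, their likeness is not counted as support.

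**Figure D1:**
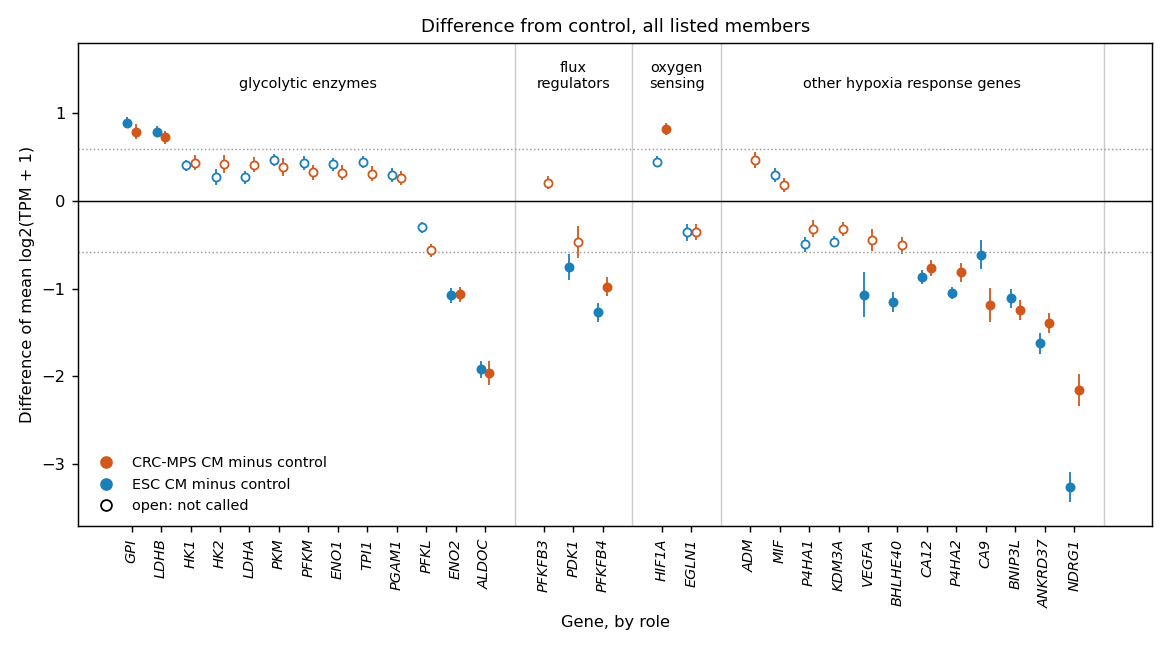
Difference of mean log2(TPM + 1) from control (y axis) for every listed member, grouped by role (x axis), with CRC-MPS CM (orange) and ESC CM (blue), filled where called, with bars of 1 SE and dotted lines at a 1.5-fold difference. Most enzymes lie above 0 and most other hypoxia response genes below it, down to NDRG1 at -3.26 after ESC CM and -2.15 after CRC-MPS CM.

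Among the glycolytic enzymes, 13 of 16 were listed in each comparison with control, and 10 of the 13 were higher and 3 lower with either CM. The median difference of the listed enzymes was 0.32 after CRC-MPS CM and 0.41 after ESC CM, beside -0.01 and -0.05 over all listed genes. Of all listed genes, 5002 of 10019 had the higher mean with CRC-MPS CM and 4955 of 10007 with ESC CM. Past both thresholds were GPI and LDHB as higher and ALDOC and ENO2 as lower, with either CM. Of all listed genes, 20.3% were called higher and 20.1% lower for CRC-MPS CM, and 17.6% and 20.1% for ESC CM. The enzymes' calls, 2 of 13 each way, lie near these shares. The 13 enzymes together came to 6161 ± 332 TPM in control (SD, n = 3), 8085 ± 445 TPM with CRC-MPS CM and 8357 ± 243 TPM with ESC CM, a sum that PKM, ENO1, LDHA and other abundant enzymes dominate. Reads of several of these enzymes can be shared with processed pseudogenes, of which the annotation names 13 for PGAM1, 6 for LDHA, 5 for PKM, 4 each for TPI1 and ENO1 and 3 for LDHB, and 22 of the 36 members overlap a gene on the opposite strand.

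GPI, which turns glucose 6-phosphate into fructose 6-phosphate, was at 241, 245 and 231 TPM in control, 451, 423 and 454 TPM with ESC CM and 447, 422 and 375 TPM with CRC-MPS CM. Every library with CM lay above every control library, a difference of 0.79 ± 0.0847 (SE) with CRC-MPS CM (adjusted p = 0.000245, limma) and 0.89 ± 0.0598 with ESC CM (adjusted p = 6.28e-05). A gene named AC092073.1 overlaps GPI on the same strand and can share its reads. LDHB, the lactate dehydrogenase subunit that favours the reaction from lactate to pyruvate, was at 718, 663 and 653 TPM in control, 1141, 1147 and 1203 TPM with ESC CM and 1129, 1127 and 1096 TPM with CRC-MPS CM. It was higher by 0.72 ± 0.0704 with CRC-MPS CM (adjusted p = 0.000164, limma) and by 0.79 ± 0.0625 with ESC CM (adjusted p = 0.000105), again with no overlap. LDHA, the subunit that favours lactate production and a textbook HIF target, was at 914, 1082 and 1015 TPM in control, 1208, 1156 and 1255 TPM with ESC CM and 1271, 1407 and 1325 TPM with CRC-MPS CM. It was higher by 0.41 and 0.27 in the order CRC-MPS CM and ESC CM, under the fold threshold (adjusted p = 0.00583 and 0.0295, limma).

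ALDOC, the brain-type aldolase and the scarcer partner of the common isozyme ALDOA, showed the largest difference of any listed enzyme. It was at 61.2, 70.4 and 59.0 TPM in control, 18.0, 14.7 and 15.6 TPM with ESC CM and 19.5, 13.8 and 13.9 TPM with CRC-MPS CM. The CM libraries all lay far below the control libraries and overlapped each other, with differences of -1.96 ± 0.139 with CRC-MPS CM (adjusted p = 5.06e-05, limma) and -1.92 ± 0.0993 with ESC CM (adjusted p = 3.71e-05). ALDOA was in no table, so the share of each aldolase could not be given. ENO2, the neuronal enolase isozyme, was at 56.9, 62.0 and 51.4 TPM in control, 25.7, 28.2 and 24.8 TPM with ESC CM and 28.3, 25.4 and 25.9 TPM with CRC-MPS CM. Its level with CM was less than in any control library, with differences of -1.07 ± 0.0903 with CRC-MPS CM (adjusted p = 9.05e-05, limma) and -1.08 ± 0.0870 with ESC CM (adjusted p = 0.00011), while the common isozyme ENO1 was at 1578 ± 100.4 TPM with CRC-MPS CM, 1682 ± 62.4 TPM with ESC CM and 1267 ± 94.4 TPM in control (SD, n = 3). LRRC23 overlaps ENO2 on the same strand. PFKL, the liver type of phosphofructokinase, was the third lower enzyme, at 55.6, 56.6 and 54.8 TPM in control, 43.2, 44.4 and 46.6 TPM with ESC CM and 39.7, 36.2 and 36.1 TPM with CRC-MPS CM. Its difference of -0.57 ± 0.0710 with CRC-MPS CM lay just short of the fold threshold (adjusted p = 0.000493, limma) and was called without CRC-MPS CM replicate 1, at -0.61. With ESC CM it was -0.30 ± 0.0576 (adjusted p = 0.00431, limma), while the muscle type PFKM was higher by 0.32 after CRC-MPS CM and 0.43 after ESC CM, also under the fold threshold.

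The other listed enzymes all had higher means with either CM, by less than 1.5-fold. HK1, the hexokinase of most tissues, was at 90.0 ± 7.02 TPM with CRC-MPS CM, 87.5 ± 1.34 TPM with ESC CM and 66.2 ± 3.47 TPM in control (SD, n = 3). HK2, the inducible hexokinase of many tumors, was at 24.0 ± 1.85, 21.4 ± 1.00 and 17.7 ± 2.28 TPM in the same order, and missed the adjusted p with ESC CM (adjusted p = 0.0575, limma). Downstream, the triose phosphate isomerase TPI1 was at 1186 ± 86.9, 1296 ± 34.3 and 958 ± 61.6 TPM, and PGAM1, the phosphoglycerate mutase, at 319 ± 14.6, 325 ± 15.5 and 266 ± 20.9 TPM. PKM, the pyruvate kinase and the most abundant listed member, was at 1883 ± 212, 1979.8 ± 52.9 and 1441 ± 99.3 TPM. The differences of these 5 enzymes lay between 0.26 and 0.46, and none of their groups overlapped with control. PFKP, ALDOA and PGK1, which encode the platelet phosphofructokinase, the main aldolase and phosphoglycerate kinase, were in no table.

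**Figure D2:**
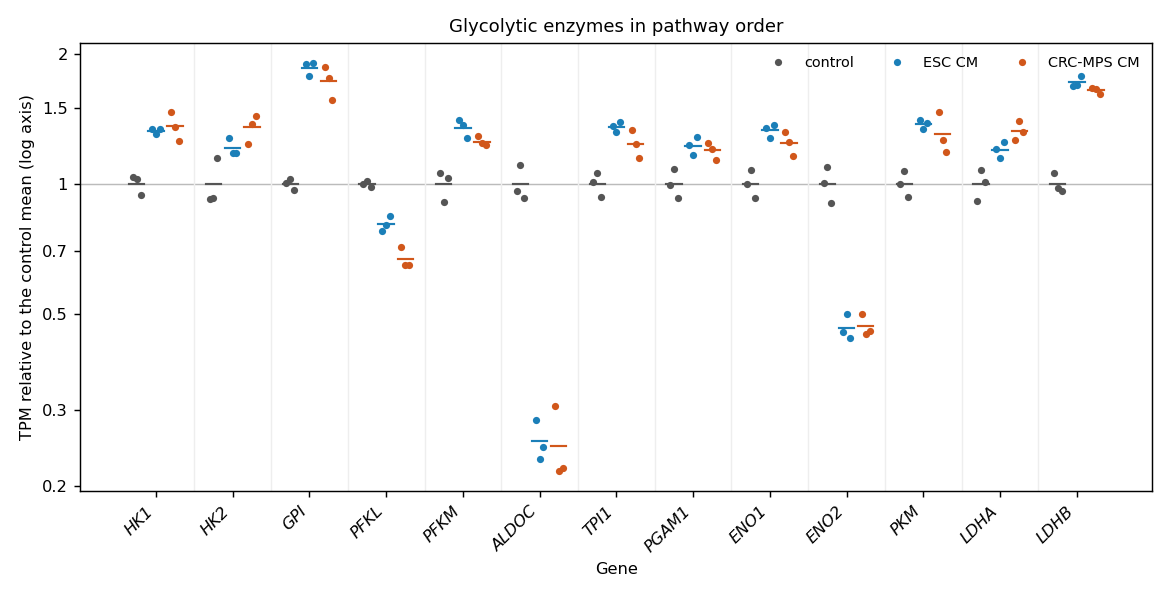
TPM of each of the 13 listed enzymes in each library, divided by the mean of the 3 control libraries of the same table (log axis), in the order of the pathway, with bars at the group means. GPI and LDHB stand highest, ALDOC and ENO2 lie well below 1, and for the other enzymes except PFKL every CM library lies above the control libraries.

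The balance of isozymes could be computed where both partners were listed. LDHA made up 59.6 ± 3.19% of summed LDHA and LDHB TPM in control (SD, n = 3), 54.4 ± 1.31% after CRC-MPS CM and 50.9 ± 0.628% after ESC CM. The shares with CRC-MPS CM were 53.0%, 55.5% and 54.7% against 56.0%, 62.0% and 60.9% in control, so the groups did not overlap, and with ESC CM they were 51.4%, 50.2% and 51.1%. ENO2 made up 4.29 ± 0.0803% of ENO1 and ENO2 in control, 1.66 ± 0.0756% after CRC-MPS CM and 1.54 ± 0.160% after ESC CM. HK2 made up 21.2 ± 3.03% of HK1 and HK2 in control, 21.1 ± 2.55% after CRC-MPS CM and 19.7 ± 0.661% after ESC CM, and overlapped. An exact two-sided permutation test gave p = 0.1 for the LDHA and ENO2 shares with either CM, the smallest that 3 against 3 libraries allow, and p = 1 and p = 0.6 for HK2. Adjusted over the 6 comparisons, these exact p-values were 0.15, 1 and 0.72, so none passed.

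Of the 4 kinases that regulate flux, 3 were listed for CRC-MPS CM, with 1 called lower, and 2 for ESC CM, both called lower. Of all listed genes, 20.1% were called lower with either CM. PFKFB4, which makes a sugar bisphosphate that activates phosphofructokinase and is induced by hypoxia, was at 7.70, 8.78 and 7.18 TPM in control, 3.19, 2.59 and 2.30 TPM with ESC CM and 3.31, 4.12 and 3.12 TPM with CRC-MPS CM. It was lower than control in every CM library, with differences of -0.98 ± 0.108 with CRC-MPS CM (adjusted p = 0.000265, limma) and -1.27 ± 0.108 with ESC CM (adjusted p = 0.000131). At this low level a pseudocount of 0.1 or 5 gave -1.15 or -0.60 for CRC-MPS CM and -1.52 or -0.74 for ESC CM. PDK1, the pyruvate dehydrogenase kinase that keeps pyruvate out of mitochondria under hypoxia, was at 10.3, 9.52 and 14.3 TPM in control, 5.66, 6.31 and 6.85 TPM with ESC CM and 6.02, 8.34 and 9.44 TPM with CRC-MPS CM. It was called lower with ESC CM (-0.75 ± 0.144, adjusted p = 0.00447, limma), while with CRC-MPS CM the difference of -0.47 ± 0.182 missed the threshold (adjusted p = 0.0794) and was called only without CRC-MPS CM replicate 3, at -0.59. PDK1 was not listed between the CM, so its difference between them was not tested. PFKFB3, the more widely expressed relative of PFKFB4, was at 24.5 ± 1.14 TPM with CRC-MPS CM and 21.1 ± 1.03 TPM in control (SD, n = 3, adjusted p = 0.0592, limma) and was not listed for ESC CM against control. PDK3 was in no table.

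Of the 13 other hypoxia response genes, 12 were listed for CRC-MPS CM and 11 for ESC CM, and 10 of them were lower with either CM. With CRC-MPS CM, 6 were called lower and none higher, and with ESC CM, 8 were called lower and none higher, where 20.1% of all listed genes were called lower in each table and 20.3% and 17.6% higher. At an unadjusted limma p under 0.05, 10 were lower and 1 higher with either CM, where 43.9% of listed genes were lower and 45.9% higher for CRC-MPS CM and 45% and 45.3% for ESC CM. Their median difference was -0.64 after CRC-MPS CM and -1.05 after ESC CM, while the listed enzymes lay at medians above 0. This split between enzymes and other hypoxia response genes is a description of counts and medians, with no test.

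NDRG1, a stress-response gene strongly induced by hypoxia, had the largest difference of all listed members. It was at 162, 250.2 and 179.8 TPM in control, 22.7, 18.7 and 17.2 TPM with ESC CM and 37.1, 41.1 and 51.4 TPM with CRC-MPS CM. The order was control, then CRC-MPS CM, then ESC CM, with no overlap between any of the groups. The difference from control was -2.15 ± 0.178 with CRC-MPS CM (adjusted p = 8.54e-05, limma) and -3.26 ± 0.172 with ESC CM (adjusted p = 3.99e-05). ANKRD37, a small ankyrin-repeat protein known as a HIF target, was at 7.49, 5.69 and 7.39 TPM in control, 1.61, 1.78 and 1.27 TPM with ESC CM and 2.16, 1.67 and 2.13 TPM with CRC-MPS CM. It was the scarcest listed member with CM and lay below every control library, with differences of -1.39 ± 0.117 with CRC-MPS CM (adjusted p = 8.88e-05, limma) and -1.62 ± 0.119 with ESC CM (adjusted p = 8.28e-05). The authors' mean normalized count for ANKRD37 was 66.9 in the table for CRC-MPS CM and 62.9 in that for ESC CM, the lowest of the listed members. Its differences ran with the pseudocount (0.1 or 5) from -1.74 to -0.76 for CRC-MPS CM and from -2.08 to -0.85 for ESC CM, and UFSP2 overlaps it on the opposite strand.

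Both carbonic anhydrases of the cell surface, which help tumor cells keep their pH, were lower. CA9 was at 41.4, 64.7 and 61.2 TPM in control, 32.3, 36.8 and 37.6 TPM with ESC CM and 28.5, 19.0 and 23.9 TPM with CRC-MPS CM. The lowest control library lay above the highest CM library, and the difference was the larger with CRC-MPS CM, -1.19 ± 0.196 (adjusted p = 0.00181, limma) beside -0.61 ± 0.166 with ESC CM (adjusted p = 0.0211). With ESC CM the call was lost without control replicate 2 (-0.49), control replicate 3 (-0.53) or ESC CM replicate 1 (-0.55), and ARHGEF39 overlaps CA9 on the opposite strand. CA12 was at 146, 177 and 155 TPM in control, 89.3, 84.8 and 85.0 TPM with ESC CM and 89.5, 96.6 and 92.7 TPM with CRC-MPS CM. It was lower than control, with differences of -0.77 ± 0.0886 with CRC-MPS CM (adjusted p = 0.000334, limma) and -0.87 ± 0.0826 with ESC CM (adjusted p = 0.000206), with a narrow spread within the CM groups.

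BNIP3L, a mitophagy receptor, was at 18.4, 18.4 and 23.7 TPM in control, 9.30, 8.05 and 8.82 TPM with ESC CM and 8.73, 7.57 and 7.38 TPM with CRC-MPS CM. Both CM lay below control without overlap, with differences of -1.24 ± 0.116 with CRC-MPS CM (adjusted p = 0.000132, limma) and -1.11 ± 0.111 with ESC CM (adjusted p = 0.000246). Its close relative BNIP3, for which the annotation names 39 pseudogenes, was in no table. P4HA2, a collagen prolyl hydroxylase subunit, was at 74.3, 81.4 and 81.7 TPM in control, 39.1, 37.1 and 36.8 TPM with ESC CM and 51.5, 40.0 and 42.9 TPM with CRC-MPS CM. It was lower than in control, with differences of -0.81 ± 0.104 with CRC-MPS CM (adjusted p = 0.000534, limma) and -1.05 ± 0.0655 with ESC CM (adjusted p = 5.35e-05), and its relative P4HA1 had differences of -0.32 and -0.50, under the fold threshold (adjusted p = 0.0359 and 0.00263, limma).

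VEGFA, the main growth factor for blood vessels, and BHLHE40, a transcriptional repressor of the clock and hypoxia responses, were called lower with ESC CM and not with CRC-MPS CM. VEGFA was at 156, 211 and 210.0 TPM in control, 101, 122 and 60.2 TPM with ESC CM and 130.4, 138 and 151 TPM with CRC-MPS CM. ESC CM replicate 3 was the lowest library by far, and the difference was -1.07 ± 0.255 with ESC CM (adjusted p = 0.012, limma) and -0.45 ± 0.128 with CRC-MPS CM (adjusted p = 0.0246), the latter past the fold threshold without control replicate 1 (-0.59). VEGFA was not listed between the CM, so whether its levels differed between them was not tested. BHLHE40 was at 19.3, 23.5 and 19.3 TPM in control, 8.85, 9.94 and 7.46 TPM with ESC CM and 14.0, 13.5 and 15.4 TPM with CRC-MPS CM. The groups stood apart in the order control, CRC-MPS CM and ESC CM, with differences of -0.50 ± 0.0977 with CRC-MPS CM (adjusted p = 0.00397, limma) and -1.15 ± 0.118 with ESC CM (adjusted p = 0.000271).

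KDM3A, a histone demethylase whose gene HIF induces, had lower means with CM by less than 1.5-fold, at 30.1 ± 2.10 TPM with CRC-MPS CM, 27.1 ± 1.38 TPM with ESC CM and 37.8 ± 1.36 TPM in control (SD, n = 3). The members that went the other way were ADM and MIF. ADM, the vasodilator adrenomedullin, was at 7.48, 7.37 and 8.55 TPM with CRC-MPS CM and 5.25, 4.92 and 5.96 TPM in control, a difference of 0.47 ± 0.0910 under the fold threshold (adjusted p = 0.00413, limma), and was not listed for ESC CM against control. MIF, a cytokine, was at 476 ± 10.6 TPM with CRC-MPS CM, 519.6 ± 27.3 TPM with ESC CM and 422 ± 31.3 TPM in control (SD, n = 3), with adjusted p = 0.122 for CRC-MPS CM and 0.019 for ESC CM (limma).

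**Figure D3:**
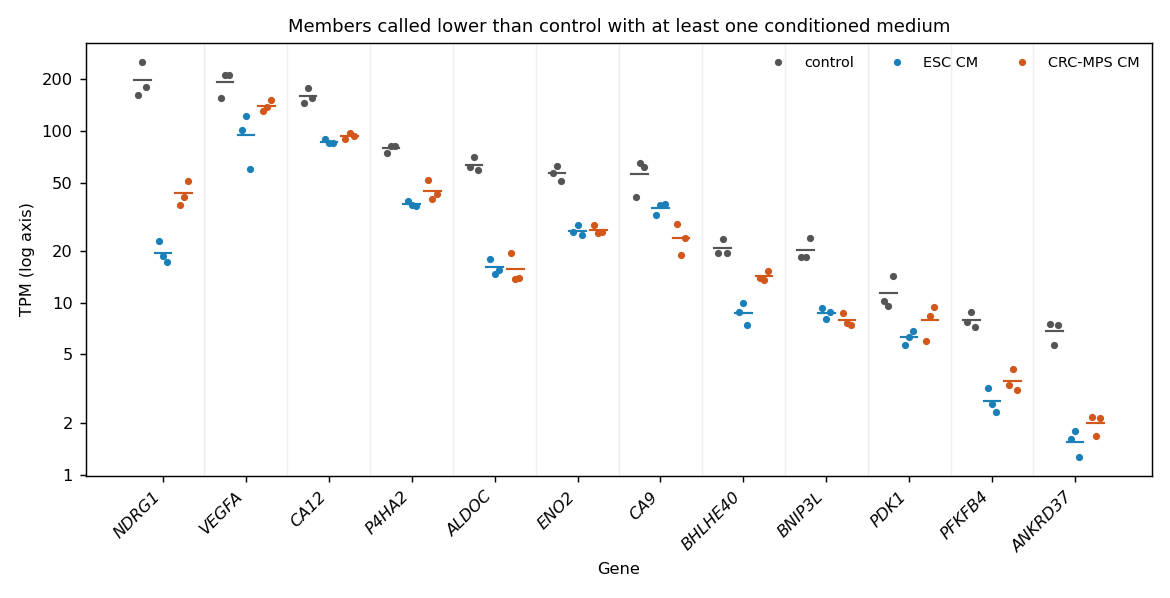
TPM (log axis) in each of the 9 libraries for the 12 members called lower than control with at least 1 CM, ordered by their control level, with bars at the group means. The control libraries lie above all CM libraries in each gene. NDRG1, VEGFA, P4HA2 and BHLHE40 stand in the order control, CRC-MPS CM, ESC CM without overlap. CA12 does so by a narrow margin (lowest CRC-MPS CM library 89.5 TPM, highest ESC CM library 89.3 TPM), and CA9 has CRC-MPS CM lowest.

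Of the oxygen-sensing genes, HIF1A was higher and EGLN1 lower in mean. HIF1A, the regulated HIF subunit, was at 52.9, 52.7 and 50.2 TPM in control, 70.0, 76.1 and 68.6 TPM with ESC CM and 93.9, 93.5 and 89.2 TPM with CRC-MPS CM. All CM libraries lay above control and the CRC-MPS CM libraries above those with ESC CM, with a difference from control of 0.82 ± 0.0673 with CRC-MPS CM, which was called (adjusted p = 8.39e-05, limma), and 0.45 ± 0.0645 with ESC CM, which passed the adjusted p but not the fold (adjusted p = 0.00121). HIF1A-AS1 and HIF1A-AS2 overlap it on the opposite strand. EGLN1, the main oxygen-sensing prolyl hydroxylase and itself a HIF target, was at 24.2, 28.9 and 26.9 TPM in control, 21.3, 22.1 and 18.3 TPM with ESC CM and 19.5, 20.5 and 21.9 TPM with CRC-MPS CM. It was lower than in control, with differences of -0.35 after CRC-MPS CM and -0.36 after ESC CM, under the fold threshold (adjusted p = 0.0128 and 0.0193, limma), and EGLN3, the hydroxylase most strongly induced by hypoxia in many cells, was in no table.

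Between the CM, the comparison that sets the whole system against its stromal cells alone, NDRG1 was the one member called. Of the 13 members listed, NDRG1 was called higher with CRC-MPS CM and none was called lower, where 1.06% of all 2835 listed genes were called higher and 0.282% lower. At an unadjusted limma p under 0.05, 6 members were higher and 2 lower, where 37.9% and 21.6% of listed genes were, shares close to those of the members. Of the listed members, 10 had the higher mean with CRC-MPS CM and 3 the lower, and in 9 the groups did not overlap, beside 63.6% of listed genes. The median difference over the 13 was 0.15, the same as over all listed genes, a median that fell to 0.05 when TPM were rescaled by the median ratio.

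In the table of this comparison NDRG1 was at 37.2, 41.0 and 51.5 TPM with CRC-MPS CM and 22.8, 18.8 and 17.3 TPM with ESC CM. The lowest library with CRC-MPS CM lay well above the highest with ESC CM, and the difference was 1.10 ± 0.140 (95% interval 0.77 to 1.42, adjusted p = 0.0337, limma). Without CRC-MPS CM replicates 2 or 3 or ESC CM replicates 2 or 3 the call was lost (adjusted p = 0.107, 0.0831, 0.171 and 0.127, limma), while the difference stayed between 0.97 and 1.21 whichever library was left out. Since NDRG1 was far higher in control than with either CM, its higher level here was a smaller reduction. The next largest difference was that of BHLHE40, at 13.9, 13.4 and 15.4 TPM with CRC-MPS CM and 8.80, 9.93 and 7.45 TPM with ESC CM, without overlap, at 0.65 ± 0.105 (95% interval 0.41 to 0.90), which missed the adjusted p (0.0759, limma).

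HIF1A was at 94.1, 94.3 and 89.3 TPM with CRC-MPS CM and 70.3, 76.2 and 68.9 TPM with ESC CM, a difference of 0.36 ± 0.0700 (95% interval 0.20 to 0.52, adjusted p = 0.109, limma), so the call with CRC-MPS CM alone against control was not shown to differ between the CM. CA9 was the largest in the other direction, at 28.5, 19.0 and 23.9 TPM with CRC-MPS CM and 32.3, 36.8 and 37.6 TPM with ESC CM, a difference of -0.57 ± 0.139 (95% interval -0.90 to -0.25, adjusted p = 0.195, limma). The difference of ADM was 0.41 (95% interval 0.17 to 0.64) and that of PFKL -0.25 (-0.42 to -0.09), neither past the adjusted p. The enzymes LDHA (0.15, 95% interval -0.02 to 0.31), HK2 (0.15, -0.03 to 0.34) and TPI1 (-0.13, -0.30 to 0.05) and the kinase PFKFB3 (0.15, -0.07 to 0.37) had intervals that reached from below 0 to above it. P4HA1, P4HA2 and KDM3A had differences of 0.19, 0.24 and 0.15, none past the adjusted p (0.590, 0.556 and 0.862, limma). The other 17 members that were listed against control were not listed here, among them ALDOC, ENO2, GPI, LDHB and ANKRD37.

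**Figure D4:**
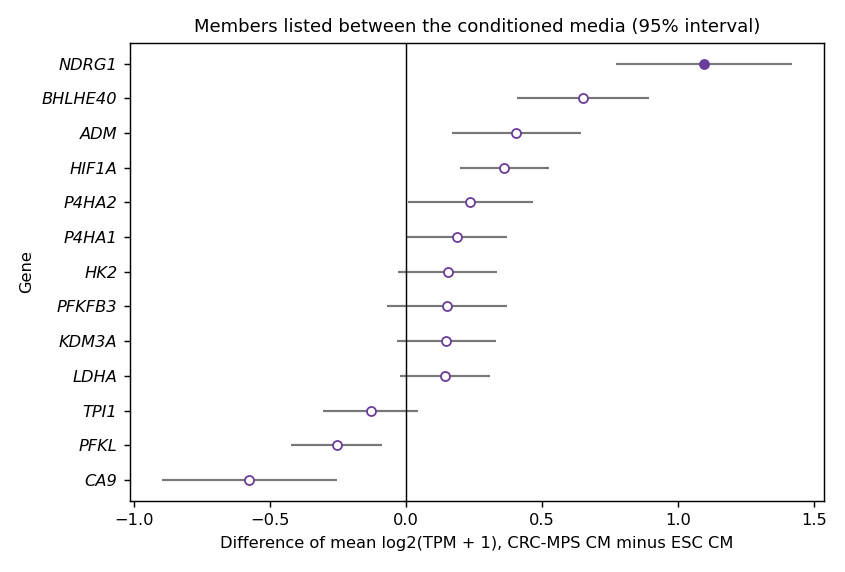
Difference of mean log2(TPM + 1), CRC-MPS CM minus ESC CM (x axis), with its 95% interval for the 13 members listed between the CM (y axis), filled where called. NDRG1 stands alone at 1.10, BHLHE40 follows at 0.65, and CA9 lies at the other end at -0.57.

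Further genes of the same pathways, from lists of general knowledge, are given as means with CM against control (SD, n = 3 each). Of 34 names of further hypoxia response genes, 1 gene under 2 symbols, 17 were listed for CRC-MPS CM, with 6 called lower and 1 higher (20.1% and 20.3% of all listed genes), and 21 for ESC CM, with 9 lower and 1 higher (20.1% and 17.6%). DDIT4, an inhibitor of mTOR signaling, was lower, at 114 ± 13.6 against 270.4 ± 64.0 TPM with CRC-MPS CM and 76.7 ± 40.3 against 269 ± 64.4 TPM with ESC CM. So were the demethylases KDM4B, at 7.19 ± 0.171 against 15.4 ± 1.04 TPM with CRC-MPS CM and 6.94 ± 0.680 against 15.3 ± 1.05 TPM with ESC CM, and KDM7A, at 3.90 ± 0.818 against 7.92 ± 1.16 TPM with CRC-MPS CM and 2.74 ± 0.494 against 7.90 ± 1.17 TPM with ESC CM. SAP30, a corepressor subunit, was higher, at 17.2 ± 0.776 against 8.82 ± 2.07 TPM with CRC-MPS CM and 16.4 ± 0.481 against 8.79 ± 2.07 TPM with ESC CM. Of 12 further HIF subunits and regulators, 7 were listed for CRC-MPS CM and 8 for ESC CM, and 2 were called higher and 1 lower with either. Of all listed genes 20.3% were called higher and 20.1% lower for CRC-MPS CM, and 17.6% and 20.1% for ESC CM. The lower gene was EPAS1, the HIF-2 alpha gene, at 13.8 ± 0.590 against 35.0 ± 3.69 TPM with CRC-MPS CM and 11.4 ± 0.397 against 35.0 ± 3.78 TPM with ESC CM. The higher genes were parts of the VHL ubiquitin ligase, ELOC, at 189.5 ± 7.55 against 112 ± 7.37 TPM with CRC-MPS CM and 172 ± 6.63 against 112 ± 7.46 TPM with ESC CM, and CUL2, at 47.7 ± 3.28 against 28.9 ± 0.586 TPM with CRC-MPS CM and 44.3 ± 0.846 against 28.8 ± 0.646 TPM with ESC CM. Between the CM, 9 further hypoxia genes were listed and none was called (7 higher and 2 lower in mean, 7 and 1 at an unadjusted limma p under 0.05), nor was any of the 3 listed HIF regulators (1 higher at that p). At that p 37.9% of all listed genes were higher and 21.6% lower.

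Of 29 further genes of glycolysis and pyruvate entry, 18 were listed for CRC-MPS CM, with 4 called higher and 3 lower, and 17 for ESC CM, with 3 higher and 4 lower. These counts lie near the 20.3% higher and 20.1% lower of all genes listed for CRC-MPS CM and the 17.6% and 20.1% for ESC CM. BPGM, which makes a side product of glycolysis, was higher, at 16.0 ± 0.464 against 8.68 ± 0.920 TPM with CRC-MPS CM and 15.3 ± 0.856 against 8.64 ± 0.912 TPM with ESC CM, as was the pyruvate dehydrogenase subunit PDHA1, at 347 ± 10.8 against 211 ± 10.04 TPM with CRC-MPS CM and 342 ± 11.0 against 212 ± 10.5 TPM with ESC CM. PGAM2, the muscle relative of PGAM1, was lower, at 0.0498 ± 0.0431 against 0.968 ± 0.193 TPM with CRC-MPS CM and 0.228 ± 0.0797 against 0.966 ± 0.193 TPM with ESC CM. Its mean lay under 1 TPM in every group, a very low level at unknown depth. PDK2, a relative of PDK1, was at 26.8 ± 2.08 against 50.5 ± 0.610 TPM with CRC-MPS CM and 36.9 ± 3.81 against 50.6 ± 0.701 TPM with ESC CM, called lower for the former only. HKDC1, a hexokinase of epithelia, was called lower for ESC CM only, at 39.1 ± 13.2 against 65.3 ± 6.57 TPM, and overlapped with control for CRC-MPS CM, at 62.8 ± 9.68 against 65.6 ± 6.44 TPM. Between the CM neither PDK2 nor HKDC1 passed the adjusted p (0.157 and 0.374, limma). GAPDH, the enzyme between TPI1 and PGK1 in the pathway, was in no table. Of 8 pentose phosphate enzymes, 6 were listed against control, and 2 were called higher and 1 lower with either CM. The shares of all listed genes were again 20.3% and 20.1% for CRC-MPS CM and 17.6% and 20.1% for ESC CM. The epimerase RPE was higher, at 93.0 ± 1.41 against 49.3 ± 0.954 TPM with CRC-MPS CM and 90.5 ± 5.12 against 49.2 ± 0.858 TPM with ESC CM, and the lactonase PGLS was lower, at 54.7 ± 4.62 against 120.3 ± 4.70 TPM with CRC-MPS CM and 63.1 ± 1.56 against 120.0 ± 4.61 TPM with ESC CM. None of the 4 genes of the first list (2 higher and 1 lower at an unadjusted limma p under 0.05) or of the 1 pentose phosphate gene (lower at that p) listed between the CM was called. At that p 37.9% of all listed genes were higher and 21.6% lower.

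The libraries of each table summed to near-equal TPM over the listed genes (747343 to 752614 for CRC-MPS CM against control, 746530 to 752538 for ESC CM against control and 277724 to 285920 between the CM), read totals are not given, and the depth per library is unknown. Epithelial markers of the colon were present, with EPCAM at 535 ± 38.4 and KRT8 at 5421 ± 345 TPM in control (SD, n = 3). Of 12, 11 were listed for CRC-MPS CM and 10 for ESC CM. With either CM 5 were called lower, among them KRT20 and CDX2, where 20.1% of all listed genes were. The 1 called higher was CEACAM5 for CRC-MPS CM and CDX1 for ESC CM, where 20.3% and 17.6% of listed genes were. Between the CM 7 were listed and CEACAM5 was called higher, where 1.06% of listed genes were. Of 29 markers of adipocytes, stromal cells, leukocytes and endothelium, 7 were listed for each comparison with control and none between the CM. Of these, PLIN4, CIDEC and CD68 were called lower with both CM, from 6.59 ± 2.13, 3.48 ± 0.756 and 23.9 ± 1.56 TPM in control, and none was called higher. Beside them, 20.1% of all listed genes were called lower with either CM, and 20.3% (CRC-MPS CM) and 17.6% (ESC CM) higher. LYZ, also made by gut epithelium, was the one leukocyte marker at a high level, 2109.7 ± 152 TPM in control. Their part in the results for the hypoxia genes was not tested.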

How the data were processed

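RNA of HT29 cells was sequenced in 9 libraries. According to GEO's processing field the reads went through STAR 2.6.1d or kallisto 0.46.0, DESeq2 was run, and the build was hg38, while annotation, strandedness and the version of DESeq2 were not given in the sources used here. Per the labels and sheets, 3 tables hold 1 value per gene and library. The sheets name no unit, and the near-equal totals fit TPM, taken here as the authors' TPM summed per gene. The authors' deposited mean normalized count is a signal, the mean over 6 libraries of counts divided by size factors. The authors' p-value was read only to check that every listed gene was under 0.05. Their fold changes, standard errors, statistics and adjusted p-values compare the same groups and were not used.

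Every column was matched to a sample by its name, and 0 columns of values per library were left unmatched. Each pair of groups was tested within its own table with limma 3.58.1 (R 4.3.3) on log2(TPM + 1), with Benjamini-Hochberg adjustment over 20000 genes, genes not listed entering as not significant, since adjustment over genes already selected on p calls too many. The selection also biases the spread that limma shares between genes downward. Genes were called at an adjusted p under 0.05 and over 1.5-fold, a pair of thresholds the paper names beside a stricter pair. SD are over 3 libraries per group. SE are those limma gives for the difference, from the 6 libraries of both groups with the spread shared between genes. Names turned into dates by a spreadsheet (14, 13 and 4 genes in the CRC-MPS CM, ESC CM and CM against CM tables) stayed in the counts. Of 11664 names, 11647 were found in GENCODE 29. Start windows were from RefSeq. The tests across genes were first run on simulated data.

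The members and all gene lists were chosen with earlier results of these data known. All members could be named, with values per library for called members, and from each further list up to 3 called genes with the largest difference per comparison, of which some are not reported here. Exceptions named outside this rule after their values were seen are GAPDH and the marker genes. LDHA, PFKL, EGLN1 and ADM are also given per library, though none of them was called in the analysis reported. Alternatives were pseudocounts of 0.1 and 5, a minimum mean of 1 TPM, adjustment over the listed genes or 60000 genes, no minimum fold, rescaled TPM, an intensity trend, a replicate block and each library left out. Tools were Python 3.11.15, numpy 2.4.6, pandas 2.3.3, scipy 1.17.1 and matplotlib 3.10.9.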

Additional observations from a re-analysis of the deposited data

Results flagged for a closer look

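NDRG1 was flagged because its reduction against the shared control was smaller after CRC-MPS CM than after ESC CM by a test of that difference itself, at 1.10 on the log2(TPM + 1) scale (adjusted p = 0.0337, limma), higher in 3 of 3 libraries. The call did not hold under 7 of 15 alternatives, whose adjusted p reached 0.171, while the difference lay between 0.97 and 1.21 under all 15.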

How the results depend on the processing

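Of 1065 values of single members under the alternatives, 1019 stayed on their side of the thresholds and none changed direction, 33 became called and 13 lost the call. A pseudocount of 5 gave 2387 called genes for CRC-MPS CM against control (4052 in the analysis reported), 2211 for ESC CM against control (3765) and 18 between the CM (38), where fewer low genes reach 1.5-fold. With no minimum fold, 8185 and 8363 genes were called against control, 12 members higher and 15 lower with CRC-MPS CM, and 11 higher with ESC CM. Between the CM, adjustment over the listed genes alone called 141 genes and 2 members (NDRG1 and BHLHE40), adjustment over 60000 genes called 15 and 0, and a pseudocount of 0.1 left 0 members called (NDRG1, adjusted p = 0.0583, limma). Leaving out 1 library gave 8 to 85 genes and 0 to 1 members, with 8 genes without CRC-MPS CM replicate 3 and 85 without CRC-MPS CM replicate 1. Rescaling TPM by the median ratio moved the share of called genes that were higher between the CM from 78.9% to 66.7% and moved the median difference of listed genes from 0.15 to 0.05. With ESC CM, PDK1 and CA9 lost the call at a pseudocount of 5 (-0.53 and -0.56), and CA9 also with adjustment over 60000 genes (adjusted p = 0.0632, limma). PFKL became called lower with CRC-MPS CM after rescaling (-0.60).

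Whether the replicate numbers of the labels pair the libraries could not be settled, since deviations from a mean of 3 libraries depend on each other. Correlations of same-numbered deviations ran from -0.356 to 0.179, and not every library correlated best with its own number. For CRC-MPS CM against control, replicates 1 (0.0926) and 3 (0.179) did. With the number as a replicate block, 14 genes and 0 members were called between the CM (NDRG1, adjusted p = 0.141, limma), and calls of members against control were the same in number. Isozyme shares of ALDOC and PFKP were not run because ALDOA and PFKP were not listed, and the other shares moved by less than 1 SD when a library was left out. Depth is unknown, so no limit of detection could be given.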

Other observations

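Among the listed enzymes, CRC-MPS CM replicate 1 was the highest of its group in 11 of 13, ESC CM replicate 3 in 8 of 13 and control replicate 2 in 9 of 13. The lowest libraries were CRC-MPS CM replicate 3 in 9 of 13, ESC CM replicate 2 in 9 of 13 and control replicate 3 in 10 of 13. Among the other hypoxia response genes, CRC-MPS CM replicate 3 was highest in 6 of 12 and replicate 1 in 5 of 12, ESC CM replicate 3 was lowest in 6 of 11, and control replicate 2 was highest and control replicate 1 lowest in 6 of 12 each. These counts describe 3 libraries a group, genes of a library are not independent, and no difference between the gene groups was tested.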
